A study of Mus musculus with 24 samples.

Results

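Potassium channel genes encode the subunits of the channels that carry potassium ions out of neurons and glia. The 91 genes described here were all genes of the deposited table whose symbol begins with Kcn, followed by letters and a number, with Kcnj10 and Kcnj13 left aside. They were 91 of 21793 genes, and the symbol pattern alone matched 93. By role they comprised 65 pore-forming subunits, 10 silent modifiers and 16 auxiliary subunits.

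Messenger RNA was measured in the hippocampus of 24 female mice. Mice of the 3xTg-AD line, called 3xTg, express human MAPT and APP from transgenes under a neuronal Thy1 promoter. They were set against B6129SF2/J mice, called WT, a hybrid strain with neither transgene. From the age of 3 months, mice ate 1 of 3 diets for 6 months. The ketogenic diet (K) held 90% long-chain triglycerides and 10% protein with no carbohydrate. The medium-chain triglyceride diet (MCT, M) held 70% carbohydrate, 10% medium-chain and 10% long-chain triglycerides and 10% protein, and the control diet (C) held 70% carbohydrate, 20% long-chain triglycerides and 10% protein. The 6 groups held 5 mice (3xTg_K), 4 mice (3xTg_M), 3 mice (3xTg_C), 4 mice (WT_K), 4 mice (WT_M) and 4 mice (WT_C). All p-values measure the spread between these mice.

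In 3 libraries the transgene check went against the genotype label. Thy1, which the cassette raises, lay between 20385 and 29277 normalised counts in 10 libraries labelled 3xTg, and between 6952 and 8137 in 11 libraries labelled WT. The libraries labelled 3xTg_C_3 and 3xTg_K_1 had 9189 and 8112, and the library labelled WT_M_2 had 23048. Labels were kept as deposited, and the calls in each genotype comparison are also given for the other 21 libraries. Depth was 10.1 to 25.8 M reads, apart from 2.65 M in 3xTg_K_2.

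Channels of the Kv families open on depolarisation and end the action potential or delay the next one, while inward rectifiers (Kir) and two-pore-domain channels (K2P) set the resting potential. Calcium- and sodium-activated channels respond to ions that enter during firing. Silent modifiers form no current alone but join the pore subunits of other genes, and the auxiliary KChIP, Kv1 beta, BK beta and MinK-related proteins alter the gating or surface level of pore subunits. In the hippocampus, Kv4 channels with KChIP subunits carry the dendritic A-type current.

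The pore subunits share the selectivity filter, a short loop that strips water from potassium ions, whose coding sequence is shown for pore and modifier genes that were called in a genotype comparison below. Each line gives coding sequence on the coding strand, from 5′ to 3′, from the GENCODE M21 annotation of GRCm38. Capitals mark an in-frame match to 5 successive codons, searched on the coding strand alone. The codons were ACN for threonine, then NTN, which covers isoleucine, valine and leucine, then GGN for glycine, then TNN, which covers tyrosine and phenylalanine, and GGN again for glycine. N stands for any base.
Kcng1: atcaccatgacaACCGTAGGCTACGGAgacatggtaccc
Kcnj11: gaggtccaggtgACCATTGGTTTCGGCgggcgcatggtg
Kcnj2: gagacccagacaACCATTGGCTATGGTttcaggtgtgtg
Kcnc2: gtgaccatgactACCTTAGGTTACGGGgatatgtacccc
Kcnk13: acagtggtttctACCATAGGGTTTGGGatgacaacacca

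The match lay at bases 1270 to 1284 of the coding sequence of Kcng1, and the one shown for Kcnk13 at bases 328 to 342. Among pore genes 52 of 65 (80%) held these letters, and all 10 silent modifiers did. A second match occurred in 11 members, all of them two-pore-domain genes. None of the 16 auxiliary genes matched, against 187 of 21584 coding genes (0.866%) in the annotation as a whole. In the EAG family 1 of 8 genes matched. A match is a description of these letters only.

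All 91 genes matched 1 gene of GENCODE M21. Of these, 74 passed the filter on low values, which required 10 normalised counts in 3 or more libraries. The other 17 did not, and Kcnj1, the renal outer medullary channel, was listed at 0 in all 24 libraries. Levels are compared between genes per kilobase of exonic length, as the mean over all 24 libraries.

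The most abundant member was Kcnab2, a Kv1 beta subunit, at 1370 normalised counts per kb. Next came Kcnj3, a G-protein-gated inward rectifier, at 662, Kcnip2, a calcium-binding KChIP subunit of Kv4 channels, at 659, and Kcnk1, a two-pore-domain channel, at 624 normalised counts per kb. The median member stood at 47.9 normalised counts per kb. Kcnd2, the main dendritic A-type pore, had 542 normalised counts per kb.

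The leading members of further families were lower. The level per kb was 337 for Kcna2, an axonal Kv1 channel, and 300.2 for Kcnma1, the pore of the large-conductance calcium-activated (BK) channel. The silent modifier Kcnv1 stood at 225 normalised counts per kb. Kcnh3 of the EAG family had 130.1, the neuronal BK beta subunit Kcnmb4 had 129, and Kcne1l led the MinK-related genes with 19.8 normalised counts per kb. Genes on the opposite strand shared 39.6% of the exonic length of Kcna6, 31.1% of that of Kcnj3 and 20.9% of that of Kcnmb4. Whether counting used strand is not given in the sources used here, so reads of these pairs cannot be told apart.

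**Figure D1:**
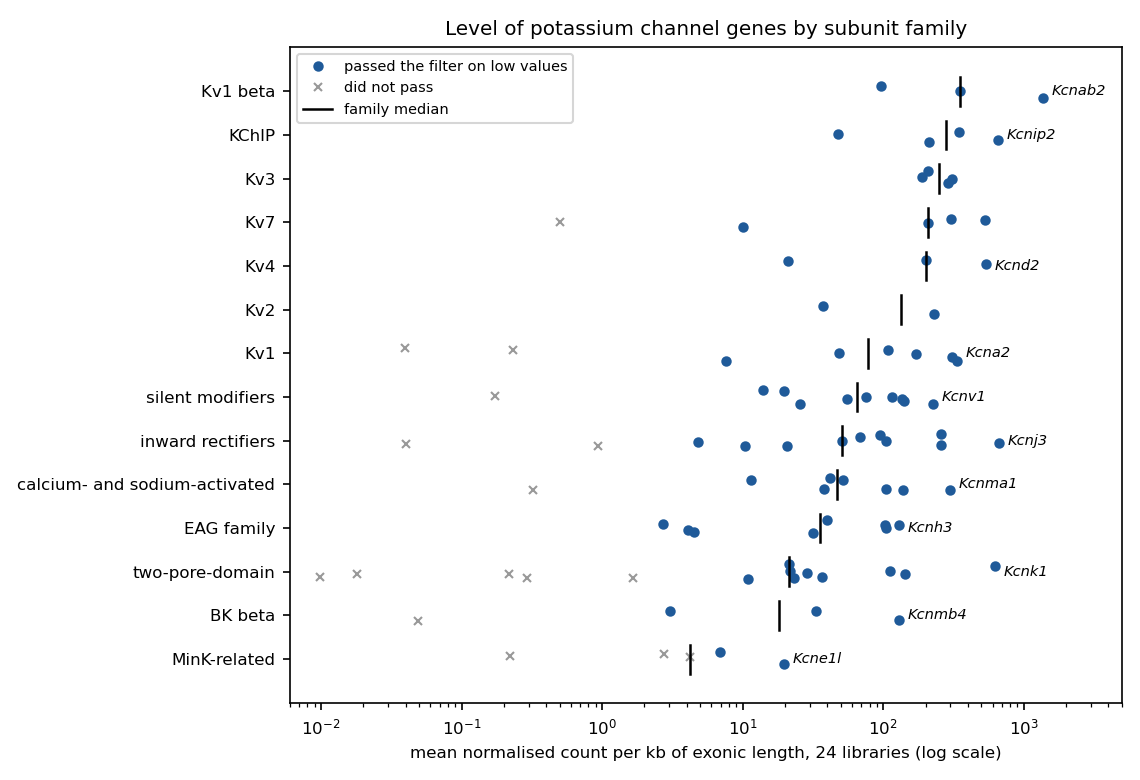
Mean normalised count per kb of exonic length over 24 libraries (log scale) for each gene, by subunit family, with the family median as a bar and the leading member of most families named; Kcnj1, at 0, is not drawn. Kv1 beta, KChIP and Kv3 genes have the highest medians, and the MinK-related genes the lowest at 4.25 normalised counts per kb.

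Added over members, the per-kb level was 11569 ± 371 in 3xTg hippocampus and 12063 ± 475 in WT hippocampus (SD, n = 12 each), given without a test. The 3 families with the highest share of that sum were Kv1 beta, inward rectifiers and KChIP. Kv1 beta genes held 15.6% ± 0.99 of it in 3xTg and 15.2% ± 0.81 in WT mice (SD, n = 12 each). KChIP genes held 10.4% ± 0.41 in 3xTg and 11.0% ± 0.53 in WT mice, and inward rectifiers held 12.9% ± 0.78 in 3xTg and 13.1% ± 0.58 in WT mice.

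The median spread between replicates was somewhat larger for members than for all genes, each with a mean of 50 or more. Among the 61 members with a mean of 50 or more, the pooled within-group SD of log2(normalised count + 1) was between 0.069 for Kcnc2 and 0.40 for Kcns1, with a median of 0.15. The median over 11778 genes at that level was 0.12.

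Several members are neighbours in the genome, and 9 neighbouring pairs lay within 200 kb of each other. Kcna5, Kcna1 and Kcna6 lie side by side on chromosome 6, with 105 kb and 61.9 kb between them, yet their levels were 7.61, 308 and 172 normalised counts per kb. Kcna3, Kcna2 and Kcna10 lie together on chromosome 3, at 48.5, 337 and 0.23 normalised counts per kb. Kcnj16 and Kcnj2 lie 38.2 kb apart on chromosome 11, at 105 and 51.3 normalised counts per kb. Lying side by side did not go with equal levels in these clusters. The level of Kcna6 carries the limit on antisense reads given above.

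The first comparison asked which members differed between genotypes over all diets. In 3xTg hippocampus 5 members were lower than in WT hippocampus, among them Kcnip2, Kcnip3, Kcnj11 and Kcng1, and no member was called higher. Both KChIP genes are Kv4 auxiliary subunits, Kcnj11 is the pore of the ATP-sensitive channel, and Kcng1 is a silent modifier. A gene was called at a limma adjusted p under 0.05, with Benjamini-Hochberg adjustment over all 14162 genes tested, on differences of log2(normalised count + 1). The 5 called members were 6.76% of the 74 tested, beside 8.10% of all genes tested. Lower calls alone made up 4.38% of all genes and higher calls 3.71%.

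Kcnip2 (chromosome 19, 45791839 to 45816061, GRCm38) had a lowest, median and highest normalised count of 1955, 2133 and 2342 in the 12 3xTg libraries, against 2160, 2426 and 2875 in the 12 WT libraries. All 12 3xTg libraries lay below the WT mean and 6 lay below every WT library, so the groups overlapped. The difference was -0.19 ± 0.04 (log2, SE; limma adjusted p = 0.00373).

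Kcnip3 (chromosome 2, 127456498 to 127522094), whose calcium-binding product also binds DNA, had 528, 618 and 1087 (lowest, median, highest) in 3xTg libraries, against 575, 873 and 1098 in WT libraries. The highest 3xTg value and the lowest WT value both came from libraries that go against their label, 3xTg_C_3 with 1087 and WT_M_2 with 575. The log2 difference was -0.37 ± 0.10 (SE; limma adjusted p = 0.0259). The call was lost without 3xTg_C_1 (0.0784), 3xTg_C_2 (0.0671) or WT_M_1 (0.0513).

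Kcng1 (chromosome 2, 168260117 to 168281736) had 357, 436 and 590.1 (lowest, median, highest) in 3xTg libraries, against 469.8, 567 and 762 in WT libraries. In 8 of 12 3xTg libraries the count was below every WT library, while 3xTg_K_5 with 590.1, 3xTg_M_4 with 573 and the libraries labelled 3xTg_C_3 with 564 and 3xTg_K_1 with 494 reached into the WT range. The log2 difference was -0.37 ± 0.09 (SE; limma adjusted p = 0.0129).

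Kcnj11 (chromosome 7, 46093953 to 46100764) had 199.9, 217 and 292 (lowest, median, highest) in 3xTg libraries, against 228, 275 and 358 in WT libraries. The highest 3xTg value was that of the library labelled 3xTg_C_3, and 8 of 12 3xTg libraries lay below every WT library. The log2 difference was -0.29 ± 0.07 (SE; limma adjusted p = 0.0102).

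**Figure D2:**
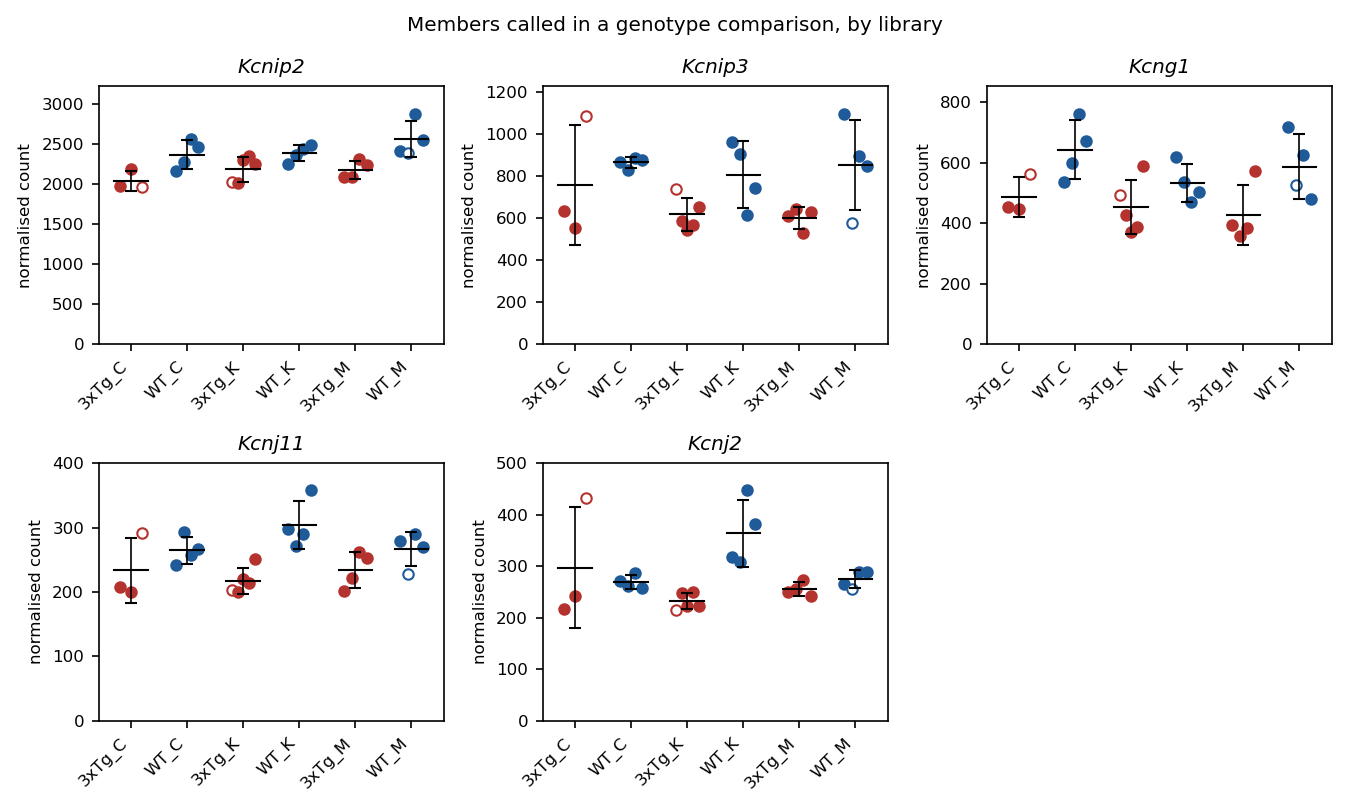
Normalised count of 5 members in each library (points) by group, with the mean and SD as bars; 3xTg groups are red and stand left of the WT group on the same diet, and open points are the 3 libraries whose Thy1 level goes against their label. Group means of Kcnip2, Kcnip3, Kcng1 and Kcnj11 are lower in 3xTg than in WT on each diet. Kcnj2 has its highest group mean in WT_K, at 364, with libraries between 307 and 448.

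By family, the called genes included 2 of 4 KChIP genes tested, 1 of 10 inward rectifiers and 1 of 9 silent modifiers. None passed the test among the 3 Kv4 genes, 9 two-pore-domain genes and 3 Kv1 beta genes tested. The 3 Kv4 pore genes, which bind KChIP proteins, had log2 differences between -0.04 and -0.02. The median difference over the 74 members was -0.04, beside -0.0008 over all genes. A negative difference was found in 48 of 74 members (64.9%), beside 50.4% of all genes.

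Genes outside the families that bind these channels were examined as a list of 28 partners and Hcn genes, of which 26 were tested. Of these 2 were higher and 2 lower in 3xTg mice, beside 3.71% of all genes called higher and 4.38% called lower. Adam22, a ligand receptor at Kv1 channel sites, differed by 0.10 ± 0.03 and Dpp10, a Kv4 partner, by 0.28 ± 0.09 (log2, SE; limma adjusted p = 0.0205 and 0.0420). Ank3, which anchors Kv7 channels at the axon initial segment, differed by -0.19 ± 0.04, and Dlg4, a synaptic scaffold, by -0.14 ± 0.04 (limma adjusted p = 0.00226 and 0.0250). Abcc8, the sulfonylurea receptor that pairs with Kcnj11, had -0.10 ± 0.06 (limma adjusted p = 0.324). In the 21 libraries 1 partner was higher, Adam22, beside 6.31% of all genes. The 4 lower ones were Ank3, Dlg4, Cntnap2 (-0.21 ± 0.04, limma adjusted p = 0.000639) and Hcn2 (-0.16 ± 0.05, 0.0477), beside 6.84% of all genes. Dpp10 had 0.25 ± 0.10 (0.0874) in that fit.

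Some cell type markers also moved with genotype. Of all genes tested, 3.71% were called higher and 4.38% lower, shares to set beside each list that follows. Of 7 dentate granule cell markers none was higher and 3 were lower in 3xTg mice, with log2 differences of -1.10 for C1ql2, -0.70 for Lct and -0.30 for Prox1. The others were not called, with -0.18 for Tdo2, -0.16 for Dock10, -0.005 for Dsp and 0.06 for Calb1. The summed granule cell level was 8325 to 9656 normalised counts (median 8914) in 3xTg libraries, against 8202 to 12110 (median 9952) in WT libraries. Of 8 endothelial and mural markers 3 were lower, with sums of 3936 to 4919 in 3xTg and 4335 to 5601 in WT libraries.

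Among the other lists, 3 of 9 GABAergic interneuron markers were higher in 3xTg mice, with sums of 11541 to 13917 in 3xTg and 11350 to 13366 in WT libraries. Higher calls numbered 2 of 8 for astrocytes, 3 of 8 for oligodendrocytes and 3 of 8 for microglia, and none was lower in the 24 libraries. Of 11 markers of CA1 to CA3 pyramidal cells 1 was higher and 1 lower, with sums of 7905 to 9173 in 3xTg and 8107 to 9651 in WT libraries. Lists for oligodendrocyte precursors, ependyma, choroid plexus, meninges and neocortex had no call, and 1 of 7 striatal markers was lower. No marker of these lists was at 0 in either genotype as a whole. In the fit of the 21 libraries, 6.31% of all genes were called higher and 6.84% lower. In the 21 libraries the lists of granule cells, endothelial and mural cells, astrocytes and striatum had the same counts of higher and lower calls as in the 24 libraries. The counts there were 3 higher and 1 lower for interneurons, 2 higher and 1 lower for oligodendrocytes, 4 higher and 0 lower for microglia, and 2 higher and 1 lower for pyramidal cells. The part of cell makeup in the channel results was not tested, and in bulk tissue fewer cells of a type and less RNA per cell cannot be told apart.

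Without the 3 libraries that go against their label, 12 members were called (16.2%), beside 13.2% of all genes. Lower calls were 9, beside 6.84% of all genes, and higher calls 3, beside 6.31%. The 4 genes named above were among the 9, with log2 differences of -0.54 ± 0.07 for Kcnip3 (limma adjusted p = 8.03e-06), -0.36 ± 0.06 for Kcnj11 (0.000326), -0.43 ± 0.10 for Kcng1 (0.00438) and -0.18 ± 0.04 for Kcnip2 (0.00418). In these 21 libraries Kcnip3 ran between 528 and 653.5 in 10 3xTg libraries, against 615.5 and 1098 in 11 WT libraries. The 10 3xTg values were all below the WT mean, and 6 were below every WT value.

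A further 4 of the genes that were lower in the 21 libraries were inward rectifiers, a modifier and a two-pore-domain channel. Kcnj2, a strong inward rectifier of neurons and vessels, differed by -0.33 ± 0.06 (limma adjusted p = 0.000706), and its neighbour Kcnj16, known from glia, by -0.27 ± 0.07 (0.0187). Kcns2, a silent modifier, differed by -0.25 ± 0.07 (0.0227), and Kcnk13, a two-pore-domain channel of microglia, by -0.40 ± 0.12 (0.0315).

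The 3 genes that were higher in the 21 libraries were Kcnc2, Kcnk6 and Kcne1l. Kcnc2, a Kv3 channel of fast-spiking interneurons, differed by 0.12 ± 0.03 (limma adjusted p = 0.00868), with 8 of 10 3xTg libraries above every WT library. Kcnk6, a two-pore-domain channel, differed by 0.40 ± 0.12 (0.0302) at low counts, between 36.5 and 64.8 in 3xTg and between 30.5 and 55.1 in WT libraries. Kcne1l, a MinK-related subunit, differed by 0.44 ± 0.14 (0.0388), between 21.6 and 48.4 in 3xTg and between 21.5 and 32.7 in WT libraries.

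**Figure D3:**
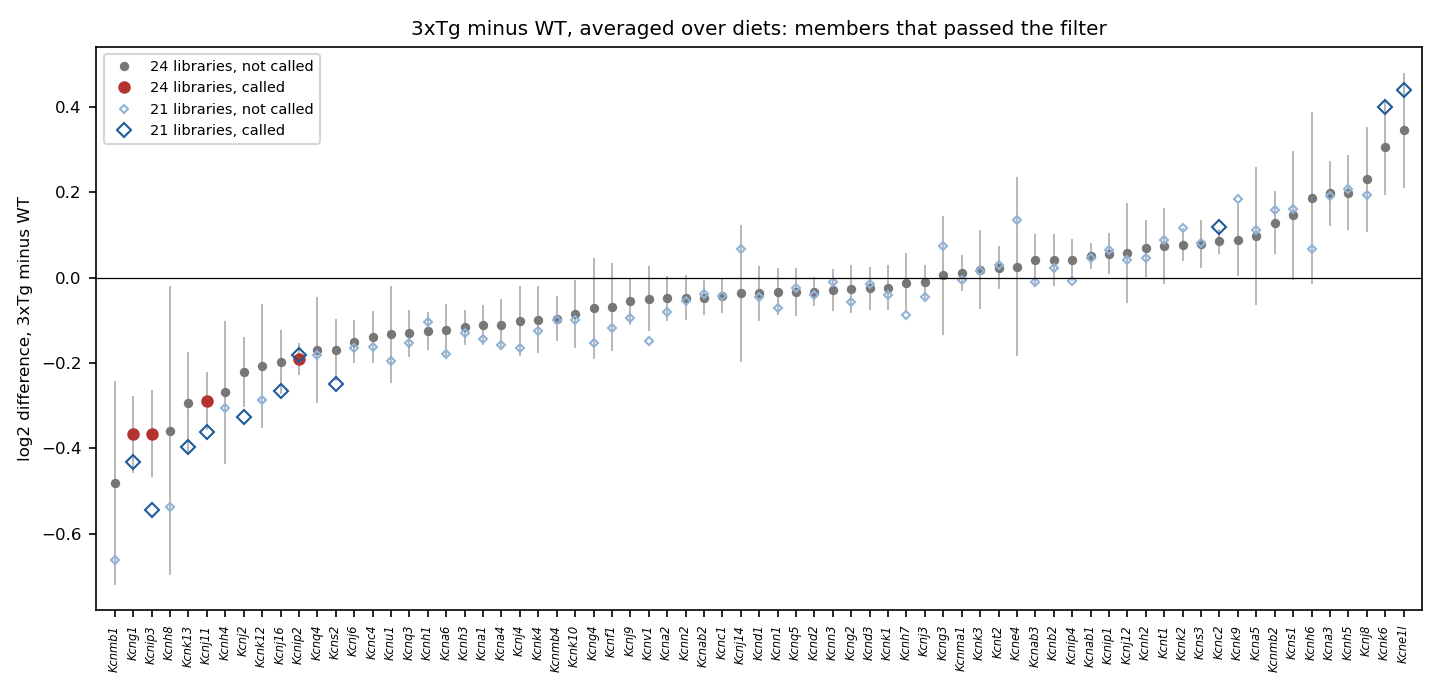
Difference in log2(normalised count + 1), 3xTg minus WT averaged over diets, for 71 of the 74 members that passed the filter, in all 24 libraries (circles, bars are SE) and in the 21 libraries without the 3 that go against their label (diamonds). The 4 members drawn as called in 24 libraries, Kcnip2, Kcnip3, Kcnj11 and Kcng1, lie between -0.37 and -0.19, and those called in 21 libraries lie on both sides of 0.

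The number called over all diets rested in part on single libraries, for members and for all genes alike. Over all genes it was 1147 of 14162 in the 24 libraries, and 576 to 1511 with 1 library left out. The number of members was 3 without 3xTg_C_1, 3 without WT_M_1, 9 without the library labelled 3xTg_C_3 and 8 without the library labelled WT_M_2. The share of all genes is not given for each of these fits, so the counts are a description only.

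The next comparisons asked whether the genotypes differed on each diet. On the ketogenic diet Kcnj2 (chromosome 11, 111066164 to 111076821) was lower in 3xTg mice and was the 1 member called (1.35% of members), beside 0.155% of all genes. It had 216, 248, 223, 249 and 223 normalised counts in the 3xTg_K libraries, against 318.5, 307, 448 and 381 in the WT_K libraries. Every 3xTg_K library lay below every WT_K library, the library labelled 3xTg_K_1 being the lowest. The share of all genes whose groups do not overlap is not given, here or in later comparisons. Separation of groups is therefore a description only. The log2 difference was -0.63 ± 0.13 (SE; limma adjusted p = 0.0484).

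The call of Kcnj2 sat close to the threshold. It was lost by edgeR's quasi-likelihood test on the recovered reads (adjusted p = 0.0617), and in limma without any of 3xTg_K_2 (0.0909), 3xTg_K_3 (0.105), 3xTg_K_4 (0.0838), 3xTg_K_5 (0.0926), WT_K_1 (0.0552), WT_K_3 (0.111) and WT_K_4 (0.146).

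Kcnj11 and Kcnc2 did not pass the limma test on the ketogenic diet. Their groups did not overlap either, again without the share of all genes to set beside this. DESeq2 called both (adjusted p = 0.0202 for Kcnj11 and 0.0448 for Kcnc2), and limma with a replicate block called Kcnj11 (0.0468). Kcnj11 had 202.5, 199.9, 220.3, 214 and 251 normalised counts in 3xTg_K, against 298, 272, 290.3 and 358 in WT_K, a log2 difference of -0.48 ± 0.11 (limma adjusted p = 0.0568). Kcnc2 had 2055, 2107, 2168, 2067 and 2237 in 3xTg_K, against 1922, 1995, 1709 and 1906 in WT_K, a log2 difference of 0.18 ± 0.05 (0.0911). Kcnmb2, a BK beta subunit, had 0.31 ± 0.12 (0.225).

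Without the 3 libraries, 4 members were called on the ketogenic diet (5.41%), beside 3.62% of all genes. These were Kcnj2 (-0.61 ± 0.09; limma adjusted p = 0.000323), Kcnj11 (-0.46 ± 0.10; 0.00778), Kcnip3 (-0.44 ± 0.11; 0.0221) and Kcnc2 (0.19 ± 0.05; 0.0216).

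On the MCT diet limma called no member, beside 0% of all genes, and edgeR and DESeq2 called 0 members too. At an unadjusted p under 0.05 in limma, 5 members and 1008 genes differed. Kcnip2 had the smallest p, with 2083, 2080, 2309 and 2229 normalised counts in 3xTg_M, against 2414, 2389, 2875 and 2552 in WT_M. All 4 3xTg_M libraries lay below all 4 WT_M libraries, with a log2 difference of -0.23 ± 0.07 (limma adjusted p = 0.380).

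Other MCT differences were -0.47 ± 0.15 for Kcng1 (limma adjusted p = 0.437), -0.47 ± 0.17 for Kcnip3 (0.528), -0.31 ± 0.13 for Kcnj16 (0.611) and -0.87 ± 0.41 for the BK beta subunit Kcnmb1 (0.683). Kcnip3 had 609, 644, 528 and 628 in 3xTg_M, against 1098, 575, 898 and 846 in WT_M. The library labelled WT_M_2, with 575, was the one that overlapped. Without the 3 libraries Kcnip3 was the 1 member called (1.35%), beside 1.77% of all genes, with a log2 difference of -0.65 ± 0.12 (limma adjusted p = 0.00235).

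On the control diet limma called no member, beside 0.0565% of all genes, and edgeR and DESeq2 called 0 members too. An unadjusted p under 0.05 in limma was reached by 8 members and 2050 genes. Kcnip2 had 1973, 2184 and 1955 normalised counts in 3xTg_C, against 2160, 2272, 2560 and 2464 in WT_C, a log2 difference of -0.21 ± 0.07 (limma adjusted p = 0.186). The groups overlapped, since 3xTg_C_2 stood above WT_C_1. Kcnab1, a Kv1 beta subunit, had 3199, 3270 and 3208 in 3xTg_C, against 2747, 2727, 2834 and 3216 in WT_C, a log2 difference of 0.17 ± 0.06 (0.205).

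Here too the groups overlapped, through WT_C_4. Kcnh3 had a control-diet log2 difference of -0.19 ± 0.08 (limma adjusted p = 0.264), the modifier Kcns3 0.26 ± 0.10 (0.272) and the KChIP gene Kcnip4 0.22 ± 0.09 (0.276). Without the 3 libraries Kcnip3 was the 1 member called (1.35%), beside 1.74% of all genes, at -0.54 ± 0.13 (0.0322). The library labelled 3xTg_C_3 held 1087 for Kcnip3, against 633 and 555 in the other 3xTg_C libraries and 828 to 887 in WT_C.

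Diets were then compared within each genotype. No member was called in any of the 4 diet comparisons by limma, edgeR or DESeq2. Of all genes limma called 0% for the ketogenic diet in 3xTg, 0% for the ketogenic diet in WT, 0% for the MCT diet in 3xTg and 0.00706% for the MCT diet in WT. At an unadjusted p under 0.05 in limma the counts of members were 4, 4, 2 and 1 of 74 in that order. Those of all genes were 948, 654, 378 and 679 of 14162. A p that misses the threshold does not show that diets act alike.

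In 3xTg mice on the ketogenic diet, Kcnip4 had 1389, 1151, 1171, 1243 and 1094 normalised counts, against 1493, 1258 and 1533 on the control diet, and -0.24 ± 0.09 (log2, SE; limma adjusted p = 0.724). The library labelled 3xTg_K_1 overlapped the control libraries. Kcnmb2 had a difference of 0.29 ± 0.13, the inward rectifier Kcnj12 -0.44 ± 0.21 and Kcnab1 -0.11 ± 0.06 (limma adjusted p between 0.724 and 0.734).

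In WT mice on the ketogenic diet, Kcnj2 had 318.5, 307, 448 and 381 normalised counts, against 271, 260.5, 287 and 258 on the control diet. The groups did not overlap, and the log2 difference was 0.42 ± 0.14 (limma adjusted p = 0.983). Kcnma1 had 4911, 5134, 4208 and 4731 on the ketogenic diet, against 6267, 5563, 4984 and 4976 on the control diet, with overlap and a difference of -0.20 ± 0.07. Kcnab1 had 0.14 ± 0.05, Kcnc2 -0.12 ± 0.05 and the MinK-related Kcne4 0.65 ± 0.36 (adjusted p = 0.983 for each).

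On the MCT diet in 3xTg mice, Kcnip4 had 1254, 1347, 1244 and 1039 normalised counts, against 1493, 1258 and 1533 on the control diet, with overlap and a log2 difference of -0.23 ± 0.09 (limma adjusted p = 0.999). Kcnc2 had 0.11 ± 0.06, the EAG-family gene Kcnh7 -0.25 ± 0.13 and the two-pore-domain gene Kcnk4 0.28 ± 0.15 (0.999 each). The ketogenic and MCT comparisons of a genotype share their control libraries.

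On the MCT diet in WT mice, the G-protein-gated rectifier Kcnj9 had 1286, 993, 1023 and 876.5 normalised counts, against 1293, 1209, 1151 and 1143 on the control diet. The groups overlapped through WT_M_1, and the log2 difference was -0.21 ± 0.09 (limma adjusted p = 0.989). Kcnip2 had 0.11 ± 0.07, Kcnh7 -0.20 ± 0.12, Kcnh3 -0.11 ± 0.07 and Kcns3 0.15 ± 0.10 (0.989 each).

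The last comparisons asked whether a diet acted differently in the genotypes, and no member was called in either by limma, edgeR or DESeq2, beside 0% of all genes in limma for both. At an unadjusted p under 0.05 in limma, 7 members and 946 genes passed for the ketogenic diet, and 0 members and 393 genes for the MCT diet. For the ketogenic diet, Kcnj2 had the smallest p, with an interaction of -0.71 ± 0.20 (log2, SE; limma adjusted p = 0.724). It was -0.38 ± 0.15 without the 3 libraries (0.748). One of these, the library labelled 3xTg_C_3, held 433 normalised counts of Kcnj2, against 217 and 242 in the other 3xTg_C libraries. Kcnab1 had -0.25 ± 0.08, Kcnip4 -0.33 ± 0.12, Kcnc2 0.18 ± 0.07 and Kcns3 -0.33 ± 0.14 (0.724 each).

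For the MCT diet the interaction was 0.54 ± 0.30 for the modifier Kcng4, -0.21 ± 0.12 for Kcnip4 and 0.34 ± 0.23 for the sodium-activated channel Kcnt1. Kcns3 had -0.21 ± 0.14 and Kcnmb2 0.25 ± 0.19 (limma adjusted p = 0.9998 for each). The difference in Kcnj2 between genotypes on the ketogenic diet is therefore not shown to differ from that on the control diet.

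**Figure D4:**
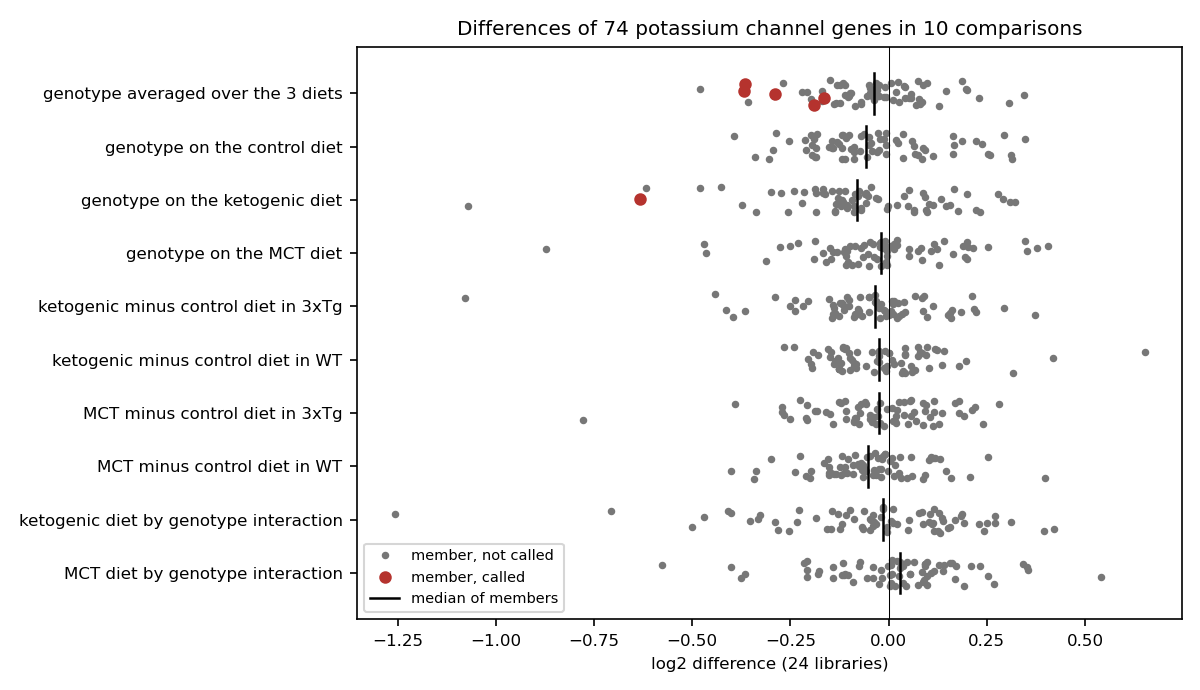
Log2 difference of each of the 74 members (points) in 10 comparisons over all 24 libraries, with the median of the members as a bar and called members in red. Called members appear in 2 comparisons, 5 for the genotype averaged over diets and Kcnj2 on the ketogenic diet.

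Kcne2, a MinK-related subunit abundant in the choroid plexus, did not pass the filter on low values but was far from even among libraries. It had 100.2 normalised counts in WT_C_1 and 50.8 in WT_K_1, against at most 5.26 in the other 22 libraries, 8 of which were at 0. The sum of 9 choroid plexus markers was 23268 in WT_C_1 and 10783 in WT_K_1, and between 2529 and 4037 elsewhere. Transthyretin (Ttr) alone had 11390 and 3921 in these 2 libraries. No test was made of Kcne2, whose level stood out together with the marker sum in these 2 libraries alone. Among the other 22, the highest sum, 4037 in the library labelled 3xTg_K_1, went with 1.09 of Kcne2. The highest Kcne2 there, 5.26 in WT_M_3, went with a sum of 3122.

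**Figure D5:**
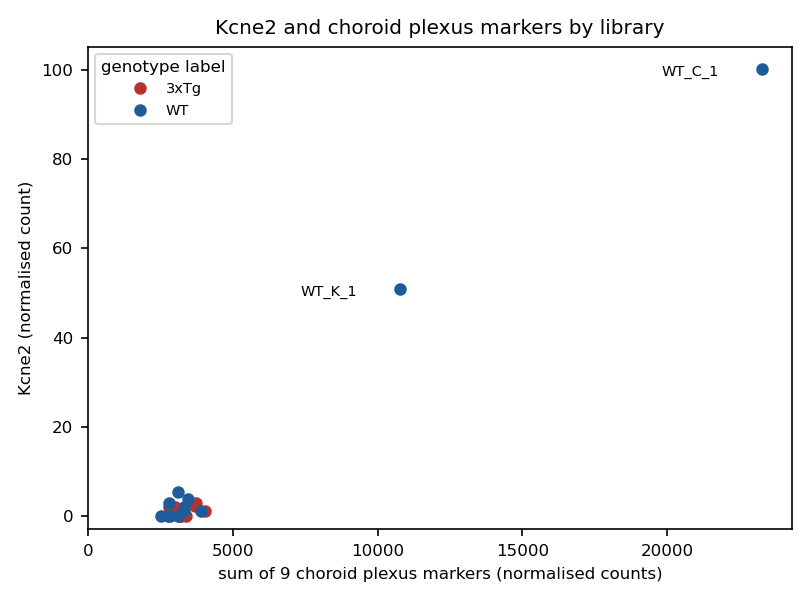
Normalised count of Kcne2 against the sum of 9 choroid plexus markers in each of 24 libraries, coloured by genotype label. WT_C_1 and WT_K_1 stand apart on both axes, at 100.2 and 50.8 for Kcne2, and the other 22 libraries lie at or under 5.26.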

How the data were processed

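Poly(A) RNA libraries were made from hippocampal RNA of 24 mice, each 1 library. Per the submitters' processing notes, Trimmomatic and STAR were used with GRCm38; the gene counter, annotation and scaling tool were not given in these sources. The deposited table of the authors holds a signal per gene, namely read counts divided by a factor per library. Values were whole multiples of 1 step per library within 0.01 reads, so whole reads were recovered for the count tests.

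The main test was limma 3.58.1 on log2(normalised count + 1), with 6 group means, a trended prior, genes with 10 or more in at least 3 libraries, and Benjamini-Hochberg adjustment over the 14162 genes kept. A difference is on the log2(value + 1) scale, which understates changes of low genes. Alternatives were pseudocounts, filters, TMM scaling, edgeR 4.0.16, DESeq2 1.42.0, a replicate block and libraries left out. The test was tested on simulated data. Positions, exonic lengths and coding sequences came from GENCODE M21 (GRCm38), matched by symbol.

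Named genes were the members called in any comparison, the smallest p until 5 were named per comparison, the most abundant of each family, and those called without the 3 libraries; some items this rule covers are not reported here. The members and lists were chosen with earlier results of these data known. Depth was 2.65 to 25.8 M reads, and its precision is limited most in 3xTg_K_2. Intervals cover spread between mice; the labels give no batch.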

Additional observations from a re-analysis of the deposited data

Results flagged for a closer look

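In groups of 4 or 5 libraries, 9 values of named members lay apart from the rest of their group by Dixon's test at the 95% level, over 160 groups of 32 genes. Chance flags about 1 in 20 groups.

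Among the genes called between genotypes, Kcng1 had 573.0 normalised counts in 3xTg_M_4, against 357 to 393 in the other 3xTg_M libraries. Kcns2 had 972 in WT_C_3, against 702 to 740.1 in the other WT_C libraries, and Kcne1l had 48.4 in 3xTg_M_3, against 31.6 to 34.4 in its group.

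Some of the values came from libraries that stand apart elsewhere. Kcnh3 had 708.5 in the library labelled WT_M_2, against 771 to 781 in its group, and Kcne4 had 37.8 in 3xTg_K_2, the shallowest library, against 15.3 to 19.5.

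The rest were single values. Kcnt1 had 368 in WT_M_3, against 462 to 479. Kcns3 had 183.5 in WT_C_2, against 149 to 154. Kcnmb4 had 434 in WT_C_2, against 468 to 471, and 401 in WT_M_4, against 449.5 to 457.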

How the results depend on the processing

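Among the differences of members that were called or named for the smallest p, no direction reversed in the alternatives run. Directions of the other members were not followed in this way. Over all diets, Kcnip2, Kcnj11 and Kcng1 kept their call in all 34 alternatives, with adjusted p up to 0.0135, 0.0379 and 0.04. Kcnip3 lost its call without 3xTg_C_1 (adjusted p = 0.0784), 3xTg_C_2 (0.0671) or WT_M_1 (0.0513). The count of members over all diets was 3 to 9 with 1 library left out, beside 576 to 1511 of all genes. It was 12 without the 3 libraries, beside 13.2% of all genes. Without these and 3xTg_K_2, an alternative chosen after seeing the data, it was 14. On the control diet it was 1 in both of the latter fits, and on the MCT diet 1 and 2. The share of all genes is not given for the fit without these and 3xTg_K_2, so its counts are a description only. Counts of all genes by DESeq2 and edgeR follow below. On the ketogenic diet the count was 0 with no filter, 0 with a mean of 50 or more, 0 by edgeR and 3 by DESeq2. It was 4 without the 3 libraries, beside 3.62% of all genes, and 3 without these and 3xTg_K_2. With 1 library left out it was 0 to 2, beside 0 to 325 of all genes. For Kcnj2, limma adjusted p reached 0.146 without WT_K_4. The cause was not tested.

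Replicate numbers did not pair the samples: 6 of 24 libraries correlated best with one of their own number, and same-number correlations had a median of -0.00028. With the replicate block, 6 members were called over all diets and 1 on the ketogenic diet, Kcnj11 (adjusted p = 0.0468), where Kcnj2 had 0.0535. Over all genes, counts over all diets ran from 576 to 1511 with 1 library left out, and counts on the ketogenic diet from 0 to 325. DESeq2 called 220 genes on the control diet, 150 on the ketogenic diet and 28 on the MCT diet, and edgeR called 5 on the ketogenic diet. The depth of 3xTg_K_2 limits its low genes.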
